A study of Arabidopsis thaliana with 4 samples.

Results

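WRKY proteins are plant transcription factors named for a conserved stretch of amino acids in their DNA-binding domain, and they bind a short promoter element called the W-box. The genes described here are WRKY53, WRKY6, WRKY22, WRKY47 and WRKY20 of Arabidopsis thaliana. The 5 names were set with earlier results of these data known. Probe sets were then taken by 1 rule, namely having 1 of these genes as the single gene in the platform annotation. Each of the 5 genes had 1 such probe set, so the group holds 5 of the 19883 probe sets tested, or 5 of the 7 genes of the WRKY family that were paired with a probe set of their own here. The RefSeq gene table names 72 genes of that family, and the other 65 were not analysed here.

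All 4 samples were whole rosettes of 46-day-old transgenic C24 plants with an inducible construct for overexpression of ORS1, a NAC-family transcription factor known as a promoter of leaf senescence. In the DEX group (2 arrays) rosettes were sprayed with 30 µM dexamethasone (DEX), the steroid that switches on the construct, and in the mock group (2 arrays) with 0.05% ethanol, and both were harvested after 5 h. RNA was measured on Affymetrix ATH1 arrays, and the deposited values are log2 expression values from GCRMA, a method that corrects background by probe sequence. Since mock plants carry the construct too and no plants without it were analysed here, a response to DEX itself cannot be told apart from a response to ORS1. The labels give no ethanol content for the DEX spray, so a response to a difference in ethanol cannot be told apart either. The promoter that drives the construct, the number of independent lines and the number of plants behind each array are not stated in the sources at hand, so the p-values cover only the spread between these arrays. ORS1 itself could not be matched to a probe set, so the level of the induced gene was not analysed here.

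Leaf senescence is the ordered last stage of leaf life, in which chloroplasts are taken apart and nutrients are moved out, and it is run by networks of NAC and WRKY factors. WRKY factors are also central to immune signalling, where mitogen-activated protein (MAP) kinase cascades act on them and they act on one another's promoters. In Arabidopsis, WRKY53 promotes the onset of senescence and responds to hydrogen peroxide. WRKY6 is induced in senescing leaves and during defence and represses the phosphate exporter gene PHO1. WRKY22 acts below the flagellin receptor in the immune MAP kinase cascade and has a role in senescence induced by darkness. WRKY47 belongs to the same structural subgroup as WRKY6 and has been linked to aluminium tolerance, and WRKY20 has a pair of WRKY domains and has been linked to sugar-responsive starch genes.

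Of the 5 genes, 4 had higher transcript levels after DEX on both arrays than on either mock array, and 1, WRKY20, had lower levels. The changes were small, from 1.21-fold for WRKY22 to 1.56-fold for WRKY53, and 0 of the 5 passed the test over all probe sets (limma, a linear model with a variance shared across probe sets, Benjamini-Hochberg adjusted p under 0.05). Without adjustment, 3 of the 5 (WRKY53, WRKY47 and WRKY6) had a p under 0.05, against 8.78% of all tested probe sets. At the adjusted threshold 0.448% of the tested probe sets passed, 0.246% as higher after DEX and 0.201% as lower. The groups did not overlap for 5 of 5 genes, which was so for 38.0% of all tested probe sets, 18.1% as higher and 19.8% as lower. The median log2 change of the 5 genes was 0.39, beside -0.012 over all tested. Since the genes were chosen with earlier results of these data known, these shares are a description and no test of the group. In bulk RNA of whole rosettes, a change in the number of cells of a type and a change in RNA per cell cannot be told apart.

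**Figure D1:**
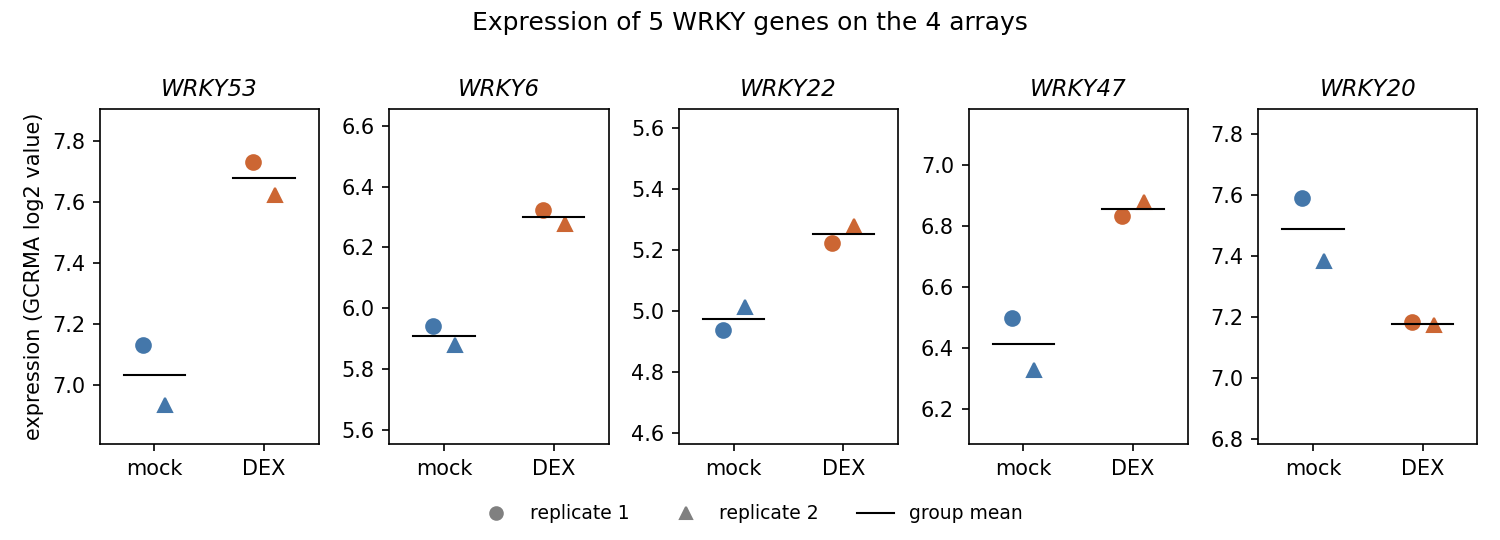
GCRMA log2 expression value (y axis, a range of the same width in each panel) of each gene on the 2 mock and 2 DEX arrays, with circles for replicate 1, triangles for replicate 2 and a line at each group mean. Both DEX values lie above both mock values for WRKY53, WRKY6, WRKY22 and WRKY47, and below them for WRKY20.

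WRKY53 (AT4G23810, probe set 254231_at) showed the widest difference of the group. Its log2 values were 7.73 and 7.62 on DEX replicates 1 and 2 and 7.13 and 6.94 on mock replicates 1 and 2. The lowest DEX value lay 0.49 above the highest mock value, a gap 2.51 times the difference between the mock arrays, which was the wider of the pairs. The mean was 7.68 ± 0.075 (SD, n = 2) after DEX and 7.03 ± 0.14 (SD, n = 2) after mock. That is a log2 change of 0.64 ± 0.18 (SE), with a 95% interval of 0.24 to 1.05, or 1.18-fold to 2.07-fold. Over all probe sets the change did not pass (limma adjusted p = 0.249; unadjusted p = 0.00602). Positive changes at least as large were measured for 440 probe sets, 2.21% of those tested. In fits that left out 1 array the change was 0.59 without DEX replicate 1 and 0.70 without DEX replicate 2. It was 0.74 without mock replicate 1 and 0.55 without mock replicate 2. Each such fit leaves a single array in 1 group, so its spread is that of the other group alone and its calls are not relied on.

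WRKY6 (AT1G62300, probe set 264746_at) had the tightest pairs relative to its change. It was measured at 6.32 and 6.28 on the DEX arrays and at 5.94 and 5.88 on the mock arrays, in the order of the replicate numbers. The gap between the groups, 0.34, was 5.43 times the wider pair difference. From 5.91 ± 0.044 (SD, n = 2) after mock the mean stood at 6.30 ± 0.032 (SD, n = 2) after DEX, 1.31-fold higher. The log2 change of 0.39 ± 0.14 (SE; 95% interval 0.066 to 0.71) did not pass (limma adjusted p = 0.436; unadjusted p = 0.0237). For comparison, 7.34% of tested probe sets were higher by at least this much. The small spread of these 2 pairs enters the test only in part, because limma draws each variance toward the trend over all probe sets. With the unmoderated variance of WRKY6 alone the SE was 0.038 and the adjusted p 0.704, since that test has only 2 residual degrees of freedom.

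WRKY47 (AT4G01720, probe set 255596_at) was second in size. The DEX arrays gave log2 values of 6.83 and 6.88, and the mock arrays gave 6.50 and 6.33. All values of one group thus lay apart from those of the other by at least 0.34, which is 1.96 times the mock pair difference of 0.17. The change was 0.44 ± 0.16 (SE; 95% interval 0.085 to 0.80), or 1.36-fold, and did not pass (limma adjusted p = 0.425; unadjusted p = 0.0213). Of all tested probe sets, 5.69% were higher by at least as much.

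WRKY22 (AT4G01250, probe set 255568_at) was the dimmest of the 5. Its values of 5.23 and 5.28 after DEX and 4.94 and 5.01 after mock lay about 1 log2 unit above the level of 4 used as the filter on dim probe sets. GCRMA shrinks differences in that range, so the fold may be understated, though this was not tested. Whether the values of WRKY22 stand above background was not measured either. The root hair gene EXPA7 read higher in these rosettes, at 5.72 to 5.98. The groups were 0.21 apart at their closest, 2.90 times the mock pair difference. The change of 0.28 ± 0.12 (SE; 95% interval -0.0089 to 0.56) had an interval that includes 0 and did not pass (limma adjusted p = 0.584; unadjusted p = 0.056). Positive changes of this size or larger were common, at 12.2% of tested probe sets.

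WRKY20 (AT4G26640, probe set 253983_at) was the gene with lower values after DEX. It stood at 7.18 and 7.17 on the DEX arrays and at 7.59 and 7.38 on the mock arrays. The DEX pair differed by only 0.0091 and the mock pair by 0.21, slightly more than the gap of 0.20 between the groups. The change was -0.31 ± 0.17 (SE; 95% interval -0.71 to 0.090), from 7.49 ± 0.15 to 7.18 ± 0.0065 (SD, n = 2), and did not pass (limma adjusted p = 0.681; unadjusted p = 0.112). Negative changes of at least this size were measured for 8.60% of tested probe sets.

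**Figure D2:**
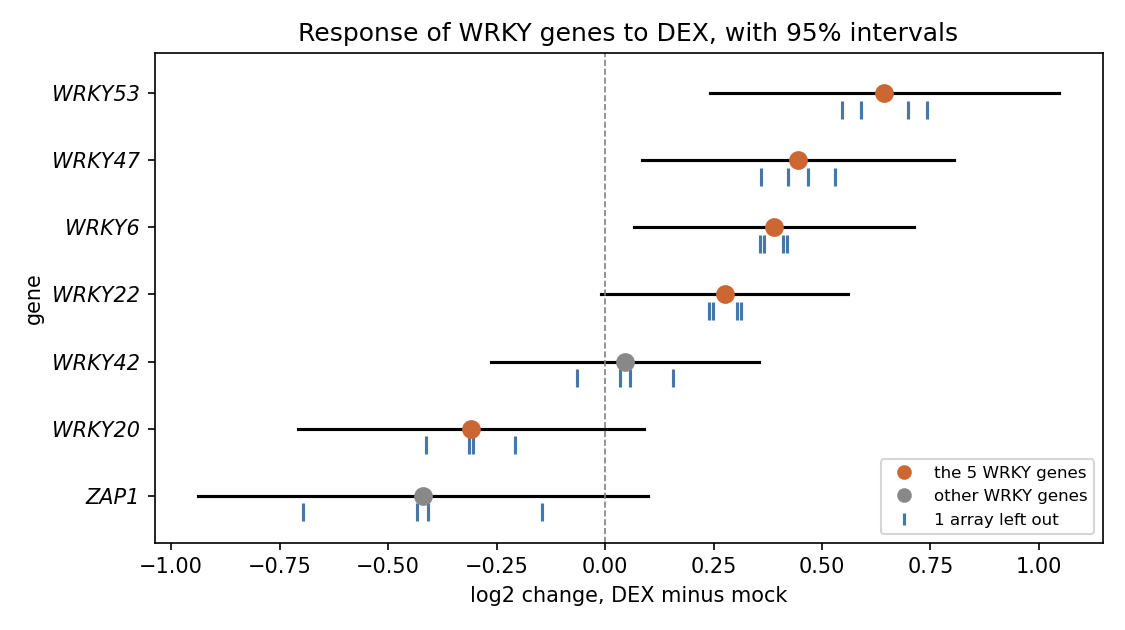
Log2 change from mock to DEX (x axis) of the 5 genes (orange) and of the other 2 WRKY genes measured (grey), with 95% intervals from limma as black lines and the values with 1 array left out as blue ticks. WRKY53 lies highest at 0.64 and WRKY20 at -0.31, and the intervals of WRKY53, WRKY47 and WRKY6 lie above 0.

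Ordered by change, the genes ran from WRKY53 through WRKY47, WRKY6 and WRKY22 to WRKY20. The interval of each gene overlapped that of its neighbour in this order, so the order of neighbours is not settled by these arrays. The intervals of WRKY53 and WRKY20 did not overlap. The difference between the genes' responses was not itself tested. Across the 4 arrays, with each gene centred on its own mean, WRKY6 and WRKY47 were the closest pair (root mean square distance 0.058 log2 units) and WRKY53 and WRKY20 the farthest (0.478). Among the 4 genes with higher values after DEX the distances were 0.215 or less, and from WRKY20 to any of them they were 0.310 or more.

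Calls rest on p, which also depends on spread. The smallest change that passed the test anywhere on the arrays is thus no cutoff for the 5 genes. Among called probe sets it was 0.78 for a rise and -0.79 for a fall. GAMMA-VPE, a gene described below, had a larger fall of -0.93 and did not pass (limma adjusted p = 0.19). The largest unadjusted p called was 0.000222. WRKY53, with an unadjusted p of 0.00602, ranked 482 of 19883 by p. With 2 arrays against 2, an exact two-sided permutation test of any single gene cannot give a p below 0.333.

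**Figure D3:**
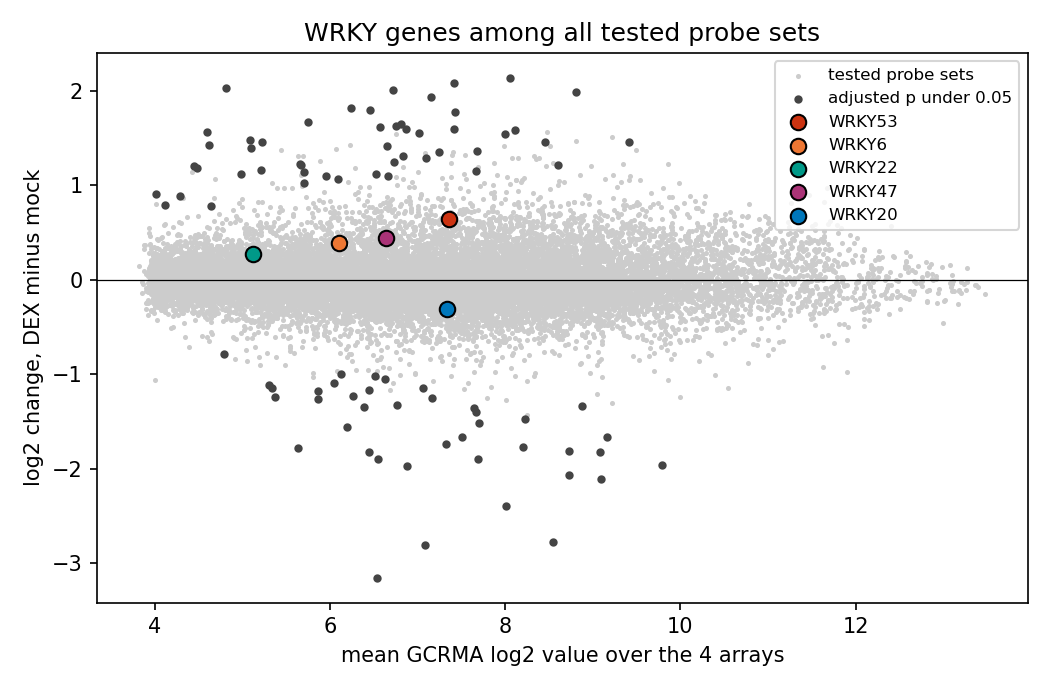
Log2 change from mock to DEX (y axis) against the mean log2 value over the 4 arrays (x axis) for the 19883 tested probe sets, with the 89 that passed in dark grey and the 5 WRKY genes in colour. The WRKY genes lie at changes between -0.31 and 0.64, inside the band where no probe set passed.

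Both other WRKY genes that could be named stayed short of the threshold. ZAP1, also known as WRKY1, was at 7.93 and 7.91 after DEX and 8.62 and 8.07 after mock. The groups did not overlap, but the mock arrays differed by 0.55, more than the gap of 0.13 between groups. Its change of -0.42 ± 0.23 (SE) did not pass (limma adjusted p = 0.668). It was -0.70 without mock replicate 2 and -0.15 without mock replicate 1. WRKY42, a close relative of WRKY6 that also represses PHO1 in Arabidopsis, was at 5.31 and 5.09 after DEX and 5.16 and 5.14 after mock. The groups overlapped, the change was 0.047 ± 0.13 (SE; 95% interval -0.26 to 0.36; limma adjusted p = 0.969), and its sign turned without DEX replicate 1 (-0.064). Over the 7 WRKY genes, 5 changes were positive and 0 passed.

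The arrays differed from one another in a way that depends on gene length, and the WRKY genes were set against it. Over 11284 tested genes of the nuclear chromosomes with a span in the RefSeq table, put in 5 equal classes by length, the median change from mock to DEX ran from 0.10 in the shortest class to -0.083 in the longest, and the median of mock replicate 1 minus mock replicate 2 from -0.25 to 0.27. For the DEX pair these medians stayed between -0.0079 and 0.027. WRKY53 (1613 bp) and WRKY22 (1720 bp) are in the second class, where the median change was 0.072, so their higher values run with the trend. WRKY6 (2926 bp) is in the fourth class (median -0.070) and WRKY47 (3751 bp) in the longest (median -0.083), so theirs run against it. WRKY20 (4880 bp), also in the longest class, runs with it.

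With the length trend subtracted from each array, WRKY47 was at 0.53 (limma adjusted p = 0.14) and WRKY6 at 0.46 (adjusted p = 0.205), both larger than as deposited. WRKY53 was at 0.58 (limma adjusted p = 0.205), WRKY22 at 0.22 (adjusted p = 0.617) and WRKY20 at -0.22 (adjusted p = 0.653), all smaller. The directions of the 5 genes were thus kept with the trend removed, and 0 of the 5 passed. These adjusted p-values are over 11284 probe sets, while those given earlier are over 19883. With the trend left in, the same 11284 gave adjusted p-values (limma) of 0.501 for WRKY47, 0.527 for WRKY6 and 0.319 for WRKY53. For WRKY22 and WRKY20 they were 0.646 and 0.720. How much of each change the length trend makes up was not tested further. Separately, the mock pair was farther apart than the DEX pair for 5 of 5 genes, as for 68.3% of all tested probe sets. The SD over probe sets of the difference between paired arrays was 0.37 for mock and 0.21 for DEX.

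**Figure D4:**
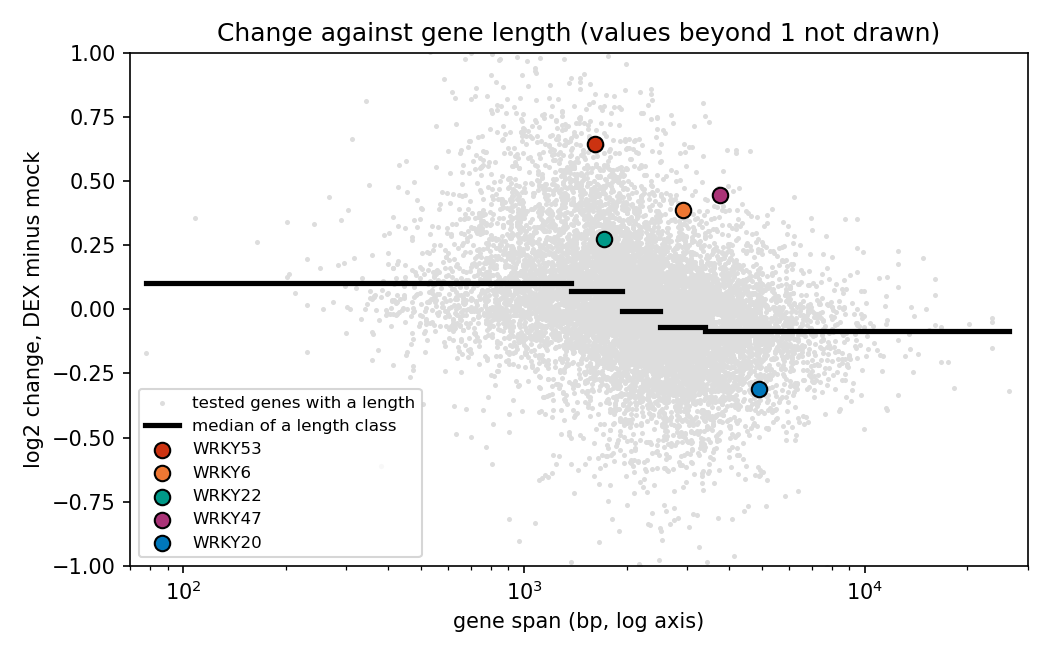
Log2 change from mock to DEX (y axis, drawn between -1 and 1) against the span of the gene in bp (x axis, log scale) for tested genes with a length, with black bars at the median of each of the 5 length classes and the 5 WRKY genes in colour. WRKY53, WRKY47 and WRKY6 lie far above the medians of their classes (0.072, -0.083 and -0.070), and WRKY20 lies below the median of the longest class.

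The genes next to each WRKY gene on the chromosome were taken by position alone. By the RefSeq annotation, 4 of the 5 genes are on chromosome 4 and WRKY6 is on chromosome 1, and WRKY22 and WRKY47 are separated by 52 protein-coding genes. Of the 10 adjacent protein-coding genes, 7 were tested, and 0 passed (limma). Beside WRKY53, 3xHMG-box2 and AT4G23820 had changes of -0.15 and -0.21 with overlapping groups. AT1G62290, beside WRKY6, was lower after DEX by about as much as WRKY6 was higher, with a change of -0.41 ± 0.17 (SE; limma adjusted p = 0.531) and groups that did not overlap. Beside WRKY47, AT4G01730 was at -0.24 with groups apart, and CRK at 0.34 with groups that overlapped. The tested neighbours of WRKY22 and WRKY20, AT4G01240 and AT4G26650, were at 0.088 and 0.059.

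For each WRKY gene the 3 most similar genes were taken among the other 11401 tested probe sets with 1 gene, by the root mean square distance over the 4 arrays after centring. Since each pattern holds only 4 values, many genes lie close to any pattern, and the likeness is a description. The closest to WRKY53 was PUB24 (distance 0.020), an E3 ubiquitin ligase gene that dampens immune signalling in Arabidopsis, at 7.56 and 7.45 after DEX and 6.97 and 6.81 after mock. AT1G55450 and AT4G29780 followed at 0.043 and 0.050. For the other 4 genes the largest listed distance was 0.022.

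YLS5, a gene named from its higher expression in yellowing leaves, was the second closest to WRKY47 (0.020), after AT2G24600 (0.010) and before AT2G32140 (0.022). Its groups did not overlap (9.66 and 9.49 after mock, 9.96 or more after DEX), and its change of 0.41 did not pass (limma adjusted p = 0.616). WRKY6 was closest to AT5G64870, AT3G05640 and AT1G02330 (0.015 to 0.020), and WRKY22 to AT5G34820, AT2G34050 and AT4G15270 (0.0095 to 0.014). Closest to WRKY20 were AT3G53270, the protease inhibitor gene SERPIN1 and UBP16, which encodes a ubiquitin-specific protease (0.016 to 0.017). None of these 15 genes passed (limma; adjusted p of 0.158 for AT4G29780 at the lowest). Without mock replicate 2 the change of PUB24 was 0.53, and without mock replicate 1 it was 0.69.

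Genes that work with these factors could be followed only in part. In the immune receptor and MAP kinase cascade, which acts on WRKY22 and WRKY53, 2 of 14 listed genes were tested, and 0 passed. The receptor gene EFR was at 6.71 and 6.42 after DEX and 6.63 and 6.27 after mock, and the receptor-associated kinase gene BIK1 at 7.10 and 7.40 against 7.47 and 6.96. Their groups overlapped, with changes of 0.12 and 0.032 (limma adjusted p = 0.921 and 0.992). Of 11 genes listed as reported targets of WRKY6, WRKY22, WRKY47 and WRKY53, only SAG101, a lipase-like gene of senescence and immunity, was tested. SAG101 was at 7.19 and 6.99 after DEX and 7.26 and 6.85 after mock, a change of 0.030 with overlapping groups (limma adjusted p = 0.992). The 9 listed partner proteins of WRKY factors had 0 tested genes here.

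Among other transcription factors of senescence, most of those tested had lower values after DEX. Of 28 listed outside the WRKY family 5 were tested, of which 1 fell, 0 rose and 3 others had negative changes, with a median of -0.47 beside -0.012 over all tested. MYC4, which acts in jasmonate signalling, was at 6.59 and 6.49 after DEX and 7.95 and 7.64 after mock, a fall of 2.39-fold (limma adjusted p = 0.0317). The call of MYC4 was lost without DEX replicate 2 (limma adjusted p = 0.0767), without an intensity trend (0.0555), among genes with a length only (0.0552) and with an unmoderated variance (0.718). Its relative MYC3 was at 7.28 and 7.25 against 8.16 and 7.90 and did not pass (-0.76, limma adjusted p = 0.19). The change of MYC3 was -0.89 without mock replicate 2 and -0.64 without mock replicate 1. STZ (ZAT10), a zinc finger repressor of stress responses, was the 1 with a positive change (0.60, limma adjusted p = 0.529). With 1 array left out it ranged from 0.29 (without mock replicate 1) to 0.91 (without mock replicate 2). EEL, a bZIP factor, was at -0.47 (limma adjusted p = 0.444), and at -0.30 without DEX replicate 2.

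In the senescence-associated list, 6 of 23 genes were tested and 0 passed, with 4 positive changes and a median of 0.070. The vacuolar processing enzyme gene GAMMA-VPE was at 11.3 and 11.1 after DEX and 12.4 and 11.8 after mock (-0.93, limma adjusted p = 0.19). ATG8H, an autophagy gene, was at 6.41 and 6.62 against 5.73 and 6.31 (0.50, limma adjusted p = 0.543). Without mock replicate 2 GAMMA-VPE was at -1.21 and ATG8H at 0.79, and without mock replicate 1 they were at -0.65 and 0.21. The sugar transporter gene SAG29 and the chlorophyll breakdown gene NOL were at 0.20 and -0.17 (limma adjusted p = 0.798 and 0.866). Of 16 genes of salicylic acid and defence, 1 was tested and it rose. This was UGT76B1, whose product glucosylates small defence molecules, at 6.54 and 6.63 after DEX and 5.16 and 4.66 after mock, or 3.18-fold (limma adjusted p = 0.00977). Its call was lost with an unmoderated variance (limma adjusted p = 0.730), as was every other call.

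The labelled tissue was checked against leaf markers. The 4 tested of 5, RCA, LHCB4.1, LHCB4.2 and PSAN, had log2 values of 11.48 to 13.42 on all arrays, near the top of the range of the table, and 0 passed. Of 10 markers of guard cells, vasculature, roots and flowers, 2 were tested. FMA (FAMA), of guard cells, was at 5.97 and 6.26 after DEX and 6.78 and 6.39 after mock (limma adjusted p = 0.511). It was thus lower after DEX with groups apart, as WRKY20 was. Its change was -0.67 without mock replicate 2 and -0.28 without mock replicate 1. EXPA7, of root hairs, was at 5.72 and 5.95 after DEX and 5.98 and 5.96 after mock. EXPA7 and LHCB4.1 were also lower with groups apart, while the groups of RCA, LHCB4.2 and PSAN overlapped. Of all tested probe sets, 19.8% were lower with groups apart. The part of these markers in the WRKY changes was not tested.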

How the data were processed

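Per the submitters' processing notes, the authors made the deposited values with GCRMA (version and settings not given in the sources used here), 1 per probe set and array. The scale is not stated in the deposited table and was read as log2, which GCRMA gives and the range of values fits. The array medians of 6.51 to 6.55 were left as they are. Precision is limited by there being 2 arrays a group. Of 22746 non-control probe sets, 2863 with fewer than 2 arrays at a log2 value of 4 were removed, and limma 3.58.1 under R 4.3.3 (lmFit, eBayes with an intensity trend) tested the other 19883, DEX against mock, no covariate, two-sided, with Benjamini-Hochberg adjustment over all of them. Calls are adjusted p-values under 0.05. The test was tried on simulated data.

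Groups, replicate numbers and treatments come from the labels. Gene names come from the platform annotation and the RefSeq table of TAIR10.1: 13513 non-control probe sets have 1 gene, 503 several, and 8730 are unlisted here. No coordinates are given, since no build goes with the table. No sequences were used here. The genes, lists and tests were chosen with earlier results of these data known. Named were the 5 genes, up to 10 other WRKY genes, up to 4 tested genes of each list by size of change (and APG8A, because its sign turned), and the 3 nearest patterns. Neighbouring genes were added by position after the data were seen. Alternatives covered the filter, normalization, variance model, replicate block, gene length, probe set type, threshold and each array left out. Correlation of replicate 1 deviations between DEX and mock was 0.108 over probe sets, too weak with 2 pairs to show that the numbers pair the samples.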

Additional observations from a re-analysis of the deposited data

How the results depend on the processing

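The directions of WRKY53, WRKY6, WRKY22, WRKY47 and WRKY20 were kept in 75 of 75 refits (15 settings for each gene), and 74 of these stayed on the same side of the threshold. With groups apart no sign can turn when an array is dropped, and the filter, variance model and block leave the change as it is. The exception was WRKY53 without mock replicate 2, at 0.546, in a fit where mock is a single array. Leaving out 1 array gave 0.546 to 0.742 for WRKY53, 0.358 to 0.420 for WRKY6, 0.239 to 0.313 for WRKY22, 0.359 to 0.530 for WRKY47 and -0.412 to -0.207 for WRKY20. With a replicate block the smallest adjusted p of the 5 was 0.0753 (limma, WRKY53), and 0 passed. GAMMA-VPE (limma adjusted p = 0.00347), AT4G29780 (0.00671), MYC3 (0.0265) and AT2G32140 (0.0484) newly passed. The block uses up a further residual degree of freedom and pairs arrays by numbers not shown to pair the samples, so these calls are not firm. Dropping single arrays, 0 to 1 of the 7 WRKY genes rose and 0 to 1 fell, the fall being ZAP1 without mock replicate 2. Over all probe sets 49 rose and 40 fell. Without an intensity trend there were 27 and 24, against 80 rises with robust eBayes, 0 and 0 with an unmoderated variance (1297 probe sets at an unadjusted p under 0.05), 438 and 237 with a replicate block, 107 and 81 at an adjusted p under 0.1, and 112 to 1803 and 50 to 1388 with 1 array left out. Limiting the fit to genes with a length, added after the data were seen, gave 15 and 9, from 11284 probe sets in place of 19883, and on those same probe sets removal of the length trend gave 54 and 41. Signs of small changes turned with 1 array left out: without DEX replicate 1 for WRKY42 (-0.064, range to 0.157), EFR (-0.030) and SAG101 (-0.070), without DEX replicate 2 for BIK1 (-0.12), without mock replicate 1 for APG8A (-0.29, range to 0.514), and without mock replicate 2 for EFR (-0.067), BIK1 (-0.23) and SAG101 (-0.18), whose highest values were 0.299, 0.291 and 0.236. The cause was not tested. Signal over background was not measured here.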

Other observations

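WRKY20 has been linked in Arabidopsis to the promoter of APL3, a starch synthesis gene, and APL3 was looked up for that reason with its values already known. Its log2 values were 5.14 and 5.32 after DEX and 6.75 and 6.24 after mock, a change of -1.26 ± 0.19 (SE; limma adjusted p = 0.0371), where that of WRKY20 was -0.31 ± 0.17 (SE) and did not pass. Both changes come from the same 4 arrays. The APL3 call was not followed under the alternative settings, and a link between the genes was not tested.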
